A study of Mus musculus with 28 samples.

Results

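RNA-rich primordial-type oocytes were 336 of the 38274 barcodes that passed the limits on gene number and mitochondrial RNA in 4 single-cell libraries of mouse ovary. The libraries address which ovarian cells respond to ionizing radiation (IR) and which of those responses depend on the checkpoint kinase CHEK2. A barcode was a member when it held at least 1000 genes, at most 20% mitochondrial UMIs and at least 10000 UMIs, a UMI (unique molecular identifier) being the tag that counts 1 captured RNA molecule. It also had to carry at least 0.3% of its UMIs in Zp3, Ooep, Gtsf1, Dppa3 and Dppa5a together, and under 1000 CPM (counts scaled to the same total in every cell or library) of Gdf9, a growth factor gene that oocytes switch on as follicles grow. The members numbered 122 in the wild-type non-IR library, 67 in the wild-type IR library, 59 in the Chek2-/- non-IR library and 88 in the Chek2-/- IR library.

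The mice were C57BL/6J wild-type females and females homozygous for the Chek2tm1b(EUCOMM)Hmgu null allele. All IR animals received a single whole-body dose of 0.5 Gy of gamma rays and the non-IR animals a sham exposure, and ovaries were taken 6 h later. Each single-cell library was made from the pooled, enzymatically dissociated ovaries of 4 females 7 days old, with 1 library per group, so no test between these libraries was possible and every interval given for them covers counting error only. Bulk RNA sequencing of whole ovaries of females 7 to 9 days old was the replicated test, with 6 libraries per group from paired ovaries. Its p-values measure the spread between those libraries. A bulk change can come from any cell type of the ovary, so by itself it does not replicate a change in the members.

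Primordial oocytes are the resting stock from which all later follicles are recruited. They are held in the dictyate stage of meiotic prophase, each enclosed by a few flattened pregranulosa cells, and are not replaced once lost. They are among the most radiation-sensitive cells of the body: a DNA double-strand break activates the kinase ATM, ATM activates CHEK2, and CHEK2 phosphorylates p53 and TAp63, the p63 form that oocytes store in an inactive state. Both proteins are transcription factors that switch on genes of cell cycle arrest, feedback and apoptosis.

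The members carried the markers of oocytes in all 4 libraries. In CPM of the UMIs summed over the members, with libraries in the order wild-type non-IR, wild-type IR, Chek2-/- non-IR and Chek2-/- IR, Sohlh1, a transcription factor of primordial follicles, was at 379, 347, 498 and 461. Lhx8, a second such factor, was at 247, 245, 279 and 254 CPM. Sycp3, a protein of the meiotic chromosome axis, was at 878, 879, 1091 and 915 CPM. None of the 3 genes was used to choose the cells, and in the other cells Sohlh1 was at 3.12 to 5.66 CPM, Lhx8 at 0.603 to 1.94 and Sycp3 at 2.57 to 5.42. Oocytes with at least 1000 CPM of Gdf9 held similar levels of such genes: summed, 11 primordial regulators took 2387, 2340, 2818 and 2668 CPM in the members and 2269, 2283, 2844 and 2639 CPM in those oocytes. The other markers entered the rule, and their levels are given as a description only: Dppa3, a maternal chromatin factor, was at 3355 to 3878 CPM, Gtsf1, a piRNA pathway protein, at 1278 to 1448 CPM, and Ooep, an oocyte cortex protein, at 5169 to 7113 CPM. The genes with the highest ratio over other cells in the library where that ratio was lowest were Krt33b, a keratin, at 17.6 to 23.9 CPM, Grm4, a glutamate receptor, at 80.1 to 111.8 CPM, the homeobox gene Rhox2a at 5.07 to 10.7 CPM, and Gm6878 at 75.3 to 107.5 CPM. In the other cells Grm4 stayed between 0.216 and 0.418 CPM.

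**Figure D1:**
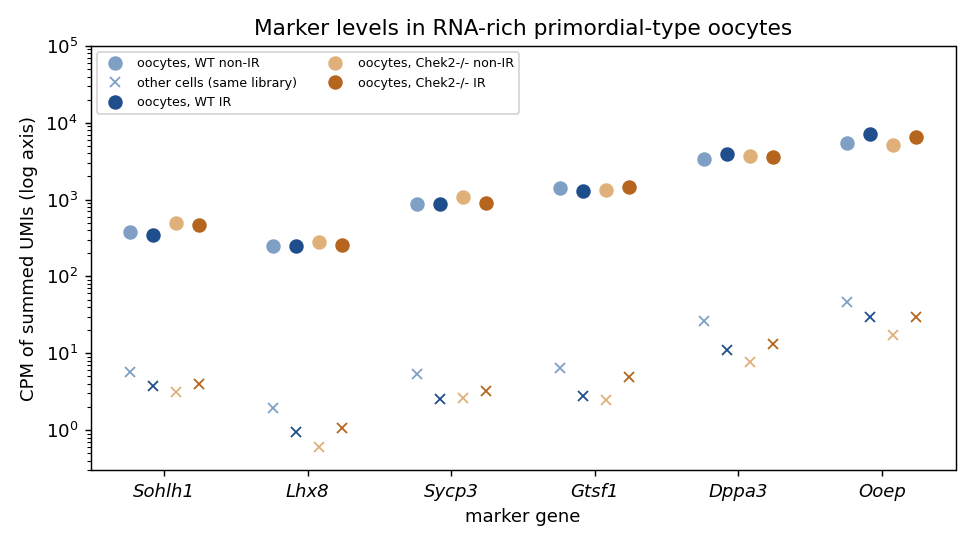
CPM of summed UMIs (log axis) for 6 marker genes, with 1 point per library for the members and 1 for the barcodes under the oocyte-gene minimum. Sohlh1, Lhx8 and Sycp3, which the rule did not use, lie between 245 and 1091 CPM in the members of every library.

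Members were 1.26% (1.05 to 1.505, exact 95% binomial interval) of the barcodes past the limits in wild-type non-IR, 0.648% (0.502 to 0.822) in wild-type IR, 0.649% (0.494 to 0.836) in Chek2-/- non-IR and 0.959% (0.770 to 1.18) in Chek2-/- IR. The share was about as low in Chek2-/- non-IR as in wild-type IR. Of all barcodes with the oocyte-gene share, members made up 63.5% (of 192), 41.9% (of 160), 78.7% (of 75) and 62.4% (of 141) in the same order. The remainder were oocytes with more Gdf9, numbering 40, 19, 10 and 17, and barcodes under 10000 UMIs, numbering 30, 74, 6 and 36. The wild-type IR library held the most oocyte-gene barcodes under 10000 UMIs. Near the limits of the rule, 7 members lay within 2000 UMIs above the minimum and 3 barcodes within 2000 below it, 10 and 18 barcodes lay within 0.1 percentage points inside and outside the oocyte-gene limit, and 3 and 7 lay within 200 CPM of the Gdf9 limit. Of the member barcodes, 2, 5, 0 and 2 also occurred in another library, none of them as a member there.

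The median member held 198622 UMIs in wild-type non-IR, 77693 in wild-type IR, 154381 in Chek2-/- non-IR and 160397 in Chek2-/- IR, against 14201 to 17635 for all other cells. Summed over the members, the libraries held 22290419, 8192677, 8610203 and 12418878 UMIs. Of the 12455 genes with at least 100 UMIs over all members, 1627 differed at least 2-fold between the wild-type libraries. RNA of granulosa cells, which surround oocytes, differed between the libraries: the summed level of 12 granulosa markers was 1210 CPM in wild-type non-IR, 503 in wild-type IR, 528 in Chek2-/- non-IR and 834 in Chek2-/- IR, against 3435 to 3926 CPM in the other cells, and no marker of this list was at 0. The per-cell median was 1233, 273.9, 214.7 and 704.8 CPM, with ranges of 0.0 to 4781, 0.0 to 5838, 68.2 to 1775 and 52.0 to 2688. Members with 1000 CPM or more of stromal, endothelial, epithelial, pericyte, macrophage or erythroid markers numbered 5, 9, 1 and 10. The Scrublet doublet caller marked 4.02% to 5.47% of barcodes per library but only 0, 2, 0 and 2 of the members.

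Chek2 itself was first read in every library as a check of genotype. In the members it was at 20.01 CPM in wild-type non-IR and 22.6 in wild-type IR, against 6.85 and 4.91 CPM in Chek2-/- non-IR and IR. In bulk ovaries it ranged from 19.8 to 24.5 CPM (median 22.5) in the 6 wild-type non-IR libraries and from 18.5 to 23.5 (median 21.3) in wild-type IR. It ranged from 2.88 to 4.44 CPM (median 3.72) in Chek2-/- non-IR and from 3.34 to 4.53 (median 4.05) in Chek2-/- IR, with no overlap between genotypes. The difference between non-IR genotypes was -2.58 on the log2 scale (SE 0.10, adjusted p = 7.45e-15, edgeR). The single-cell tags come from transcript 3' ends and need not lie in the deleted part, so the remaining UMIs say nothing about the protein.

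The first comparison set irradiated against non-irradiated wild-type members. In these oocytes 820 genes (6.58% of the 12455) were at least 2-fold higher after IR and 807 (6.48%) at least 2-fold lower. With every cell given the same weight in place of every UMI, 917 were higher and 537 lower. The minimum of 100 UMIs counts all members, so a gene with no UMIs without IR passed it through the irradiated library, and counts of higher genes are given as a description. Values called ratios are quotients of CPM, and log2 ratios and the 2-fold limits have 0.5 UMIs added to each sum. Of the 79 genes past 2-fold that are named for this comparison, the ratio of 42 moved by over 1.5 times among members under 500 CPM of granulosa markers. The higher genes included p53 feedback and arrest genes at high levels, such as Mdm2 and Cdkn1a, and genes with next to no UMIs without IR, among them the carbonyl reductase Cbr2, the kindlins Fermt1 and Fermt3 and the p53 relative Trp73. The lower genes included low-level genes such as Nos2 and granulosa cell markers such as Foxl2. In the bulk ovaries, where 409 of 26790 genes rose (1.53%) and 237 fell (0.885%) in wild-type after IR, 209 of the 813 higher oocyte genes that were tested rose (25.7%) and 0 fell, against 2.08% and 1.4% of all 12281 oocyte genes tested. At an unadjusted p under 0.05, 373 of them were higher and 1 lower, and DESeq2 called 261 higher and 0 lower. Of the 95 genes at least 16-fold higher in the oocytes, 71 (74.7%) rose in bulk, with a median bulk log2 change of 1.78. In whole ovaries, fewer cells of a type and less RNA per cell cannot be told apart.

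Mdm2, Ppm1d and Ccng1, which act against p53, were among the 820 higher genes, whose median log2 ratio was 1.62. Mdm2, the ubiquitin ligase that marks p53 for degradation, was at 75.05 CPM in wild-type non-IR, 957 in wild-type IR, 75.7 in Chek2-/- non-IR and 69.7 in Chek2-/- IR members. Its ratio in wild-type oocytes was 12.8 (12.1 to 13.4), and 66 of 67 irradiated members had at least 1 UMI of it. With 75.05 CPM already present without IR, a single UMI in a member does not mark a rise. In bulk wild-type ovaries Mdm2 ranged from 77.2 to 85.1 CPM (median 81.2) without IR and from 183 to 230 (median 196.5) with IR. The groups did not overlap, and Mdm2 rose by 1.33 on the log2 scale (SE 0.053, adjusted p = 1.19e-14). Ppm1d, a phosphatase that silences p53 and CHEK2 signalling, was at 29.6, 94.0, 30.2 and 27.5 CPM, a ratio of 3.17 (2.86 to 3.53), and rose in bulk by 0.41 (SE 0.043, adjusted p = 6.35e-07). Ccng1, a cyclin of the same feedback, was at 26.7, 85.8, 25.5 and 30.7 CPM, a log2 ratio of 1.68. In bulk it moved from 37.4 to 43.2 CPM (median 38.8) to 151 to 173 CPM (median 163.6), a rise of 2.03 (SE 0.049, adjusted p = 2.61e-19).

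Among the p53 family, Trp73 was the member that differed. It had 4 UMIs in all wild-type non-IR members and 278 in wild-type IR members, 0.179 against 33.9 CPM, a ratio of 189 (73.0 to 699), with 1 UMI in each Chek2-/- library. Its log2 ratio of 7.40 was 5.72 with cells thinned to 10000 UMIs. Bulk Trp73 ranged from 1.98 to 3.22 CPM (median 2.08) without IR and from 13.6 to 22.5 (median 15.9) with IR, and rose by 2.80 (SE 0.26, adjusted p = 8.39e-08). Trp63, which encodes the oocyte's own p63, was at 58.2, 48.1, 72.6 and 65.6 CPM, a wild-type ratio of 0.826 (0.736 to 0.926), and its bulk difference of -0.41 (SE 0.12) did not pass the test (adjusted p = 0.0816, and 0.0176 without Chek2-/- non-IR replicate 6). Of the 13 genes of the p53 family and its regulators, 4 were at least 2-fold higher and 0 lower, against 6.58% and 6.48% of all genes, with a list median of 0.13 on the log2 scale. In bulk, where 1.53% of all genes rose and 0.885% fell, Mdm2, Ccng1, Ppm1d and Trp73 rose, and 1 of the 13 fell, Cop1, a ubiquitin ligase of p53 named here after its values were seen, whose call was lost with other size factors or filters and in 22 of the 24 fits that left out 1 library.

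The p53 target list held 40 genes, 38 of them with 100 UMIs. In wild-type IR members 19 were at least 2-fold higher and 0 lower, against 6.58% and 6.48% of all genes, with a median log2 ratio of 1.08 against -0.03 over all genes, and their summed level was 2.84 times (2.79 to 2.88) that without IR. In bulk wild-type ovaries 25 of the 40 rose and 0 fell, against 1.53% and 0.885% of all genes, and DESeq2 called 28 and 0. Cdkn1a, the cell cycle inhibitor p21, was at 45.3, 253, 51.8 and 62.7 CPM, a wild-type ratio of 5.59 (5.18 to 6.03). In bulk it ranged from 21.97 to 36.6 CPM (median 25.2) without IR and from 75.5 to 104 (median 87.2) with IR, and rose by 1.67 (SE 0.13, adjusted p = 2.48e-09). Phlda3, an inhibitor of AKT, was at 10.4 and 146.5 CPM in the wild-type members, and Ddit4, an inhibitor of mTOR, at 6.19 and 132 CPM. Among members under 500 CPM of granulosa markers their log2 ratios were 5.89 in place of 3.82 and 5.79 in place of 4.41. The ratios over all members were 14.1 (12.3 to 16.3) and 21.4 (17.9 to 25.7), and bulk levels rose by 1.21 (SE 0.077, adjusted p = 7.82e-11) and 0.52 (SE 0.088, adjusted p = 0.000613). Perp, a desmosomal target of p53 and p63, had a ratio of 3.83 (3.46 to 4.23) in oocytes and a bulk difference of 0.35 (SE 0.10) that missed the threshold (adjusted p = 0.0681), but passed in 4 of the 24 fits that left out 1 library. Btg2, an antiproliferative target, differed by less than 2-fold at 183 and 353 CPM in the wild-type members, a log2 ratio of 0.95, and passed it with equal weight per cell (1.05) and among members under 500 CPM of granulosa markers (2.40). Aen, an apoptosis nuclease, did not differ beyond counting error in oocytes, at 122.5 and 117 CPM, ratio 0.955 (0.886 to 1.03).

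Capitals in the promoters below mark every CATG, the core of the sequence that p53 family proteins bind. The windows run from 250 bases before the start site to 50 bases after it. They are from RefSeq, build GRCm38.p6, and are shown for Cdkn1a and Tmem140, which hold a pair of cores at the spacing of a p53 site, and for Mdm2 and Cbr2, which were 12.8-fold and 267-fold higher in wild-type IR members and do not. The table held a second Cdkn1a promoter, chr17:29093519-29093818, with 0 CATG. The spaced pair searched was CATGNNNNNNCATG, which reads the same on both strands.
Cdkn1a, chr17:29090729-29091028, plus strand: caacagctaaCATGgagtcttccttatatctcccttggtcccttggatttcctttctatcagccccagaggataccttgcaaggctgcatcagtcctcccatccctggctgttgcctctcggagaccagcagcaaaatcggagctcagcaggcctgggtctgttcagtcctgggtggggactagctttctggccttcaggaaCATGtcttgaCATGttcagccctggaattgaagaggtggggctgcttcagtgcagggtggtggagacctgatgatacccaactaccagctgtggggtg
Tmem140, chr6:34862896-34863195, plus strand: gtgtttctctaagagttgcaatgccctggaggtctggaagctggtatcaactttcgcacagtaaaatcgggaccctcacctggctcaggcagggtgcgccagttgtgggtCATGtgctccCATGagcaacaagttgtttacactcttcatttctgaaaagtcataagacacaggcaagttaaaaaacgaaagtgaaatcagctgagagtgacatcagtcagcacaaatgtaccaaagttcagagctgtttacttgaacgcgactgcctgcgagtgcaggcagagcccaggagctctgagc
Mdm2, chr10:117710709-117711008, minus strand: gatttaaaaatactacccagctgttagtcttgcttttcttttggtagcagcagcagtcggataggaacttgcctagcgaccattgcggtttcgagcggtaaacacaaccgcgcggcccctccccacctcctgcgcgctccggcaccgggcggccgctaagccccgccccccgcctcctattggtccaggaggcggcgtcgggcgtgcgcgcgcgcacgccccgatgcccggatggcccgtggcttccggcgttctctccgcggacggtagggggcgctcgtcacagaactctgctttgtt
Cbr2, chr11:120731972-120732271, minus strand: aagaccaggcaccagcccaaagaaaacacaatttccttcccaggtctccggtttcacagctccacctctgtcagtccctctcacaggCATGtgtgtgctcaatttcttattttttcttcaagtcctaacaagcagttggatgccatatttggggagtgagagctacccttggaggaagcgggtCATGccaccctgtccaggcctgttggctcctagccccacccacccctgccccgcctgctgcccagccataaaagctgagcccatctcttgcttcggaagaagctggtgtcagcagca
The pair begins 48 bases before the start site in Cdkn1a and 140 bases before it in Tmem140, a membrane protein gene at 1.17 and 49.1 CPM in the wild-type members. It was present in 0.712% of the 32851 promoters in the table, in 0.306% of the 12399 promoters of oocyte genes with 100 UMIs and in 2 of the 82 promoters (2.44%) that matched genes at least 16-fold higher in wild-type IR members. The second of those 2 genes was Igfals, a growth factor binding protein subunit at 1.62 and 45.2 CPM. Among all genes at least 2-fold higher the pair was in 6 of 816 promoters (0.735%). Single CATG cores stood in 61.1% of all promoters, in 48.6% of those of oocyte genes with 100 UMIs and in 58.5% of those of the 16-fold genes and 49.3% of those of the 2-fold genes. These are letter matches in a short window, and most responding genes, Mdm2 and Fermt1 and Fermt3 included, had no such pair there.

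Genes of cell death differed in part. Of 10 BH3 and BAX-type genes with 100 UMIs, 4 were at least 2-fold higher in wild-type IR members and 0 lower, where 6.58% and 6.48% of all genes were. Bbc3, which encodes PUMA, was at 9.02, 83.0, 9.29 and 10.3 CPM, a ratio of 9.20 (7.85 to 10.8), and its log2 ratio of 3.20 was 4.13 among members under 500 CPM of granulosa markers. Pmaip1, which encodes NOXA, was at 2.96, 48.2, 6.74 and 2.34 CPM, a ratio of 16.3 (12.5 to 21.5). In the 6 wild-type non-IR and 6 IR bulk libraries, Bbc3 ranged from 4.43 to 7.26 (median 5.88) and from 18.6 to 27.5 CPM (median 22.04), and Pmaip1 from 1.78 to 3.69 (median 2.37) and from 12.7 to 22.6 CPM (median 15.3). Neither gene's groups overlapped, and both rose, by 1.89 (SE 0.12, adjusted p = 7.04e-11) and by 2.68 (SE 0.19, adjusted p = 5.29e-10). The other 2 were Bik, at a ratio of 4.32 (3.06 to 6.15), and Bcl2l11, which encodes BIM, at 2.07 (1.73 to 2.48). Bulk edgeR called neither Bik nor Bcl2l11 (0.06, SE 0.096, adjusted p = 0.922 for Bcl2l11). The log2 ratio of Bik was 2.11, with 1.48 among members under 500 CPM of granulosa markers and 3.8 with cells thinned to 10000 UMIs. Bcl2l11 was short of 2-fold with equal weight per cell, at a log2 ratio of 0.85 in place of 1.05. Bax, which permeabilizes the mitochondrial membrane, was at 192 and 262 CPM, ratio 1.36 (1.29 to 1.44), and rose in bulk by 0.60 (SE 0.060, adjusted p = 2.38e-07).

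The execution machinery acts downstream of these. Of 12 caspase and apoptosome genes, 2 were at least 2-fold higher, where 6.58% of all genes were: Pycard, the inflammasome adaptor ASC, at 3.54 and 89.3 CPM, ratio 25.2 (19.97 to 32.2), and Apaf1, the apoptosome scaffold, at 4.89 and 13.9 CPM, ratio 2.85 (2.17 to 3.73). Among members under 500 CPM of granulosa markers the log2 ratio was 5.56 in place of 4.65 for Pycard and 2.34 in place of 1.51 for Apaf1. Pycard did not pass the bulk test (0.64, SE 0.25, adjusted p = 0.259), while Apaf1 rose (0.44, SE 0.058, adjusted p = 1.92e-05). Casp6 was at 51.1 and 94.6 CPM and Casp2 at 31.3 and 28.3 CPM. Of 10 survival genes 1 was at least 2-fold higher and 2 lower, where 6.58% and 6.48% of all genes were. Bcl2l10, an oocyte-enriched BCL2 relative, was higher at 28.4 and 84.9 CPM, ratio 2.99 (2.68 to 3.33). Bcl2l2 and Birc3 were lower, at ratios of 0.407 (0.290 to 0.560) and 0.447 (0.303 to 0.641). With equal weight per cell Bcl2l2 was just short of 2-fold (-0.97 on the log2 scale). Bcl2l10 did not pass the bulk test (0.10, SE 0.24, adjusted p = 0.963).

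The carbonyl reductases and kindlins gave some of the largest contrasts. Cbr2, a carbonyl reductase that lowers reactive carbonyls, had 13 UMIs in 3 of 122 wild-type non-IR members and 1277 UMIs in 59 of 67 wild-type IR members, 0.583 against 156 CPM. The ratio was 267 (156 to 503), and the Chek2-/- members held 0 and 1 UMI. The log2 ratio of 8.01 was 9.92 with at most 10% mitochondrial UMIs, a limit that left out a non-IR cell at 10.21% with 10 of the 13 UMIs. In bulk it ranged from 0.0474 to 0.957 CPM (median 0.234) without IR and from 7.29 to 16.2 (median 10.7) with IR in wild-type, a rise of 5.02 (SE 0.69, adjusted p = 3.25e-05), which was 5.76 without wild-type non-IR replicate 5. Fermt1 and Fermt3, kindlins that help integrins bind talin and the matrix, were at 1.39 and 1.03 CPM in wild-type non-IR and at 133 and 185 CPM in wild-type IR members. The ratios were 95.3 (66.8 to 141) and 179 (119 to 283), and both were under 1 CPM in each Chek2-/- library. Among members under 500 CPM of granulosa markers the log2 ratio was 10.36 in place of 6.55 for Fermt1 and 10.85 in place of 7.45 for Fermt3. Without IR, 30 of the 31 Fermt1 UMIs came from 2 of the 122 cells. Those cells had 1617 and 1566 CPM of granulosa markers, so that restriction left them out. Bulk Fermt1 rose by 4.47 (SE 0.58, adjusted p = 1.41e-05) and Fermt3 by 3.599 (SE 0.39, adjusted p = 7.43e-07), again with no overlap between the 6 libraries of each wild-type group.

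Their relatives did not all move with them. Dcxr, a dicarbonyl reductase, was at 51.1 and 170.5 CPM, ratio 3.34 (3.08 to 3.61), and rose in bulk by 1.55 (SE 0.12, adjusted p = 4.16e-09). Cbr3 had a ratio of 5.04 (4.005 to 6.38) in oocytes, a log2 ratio of 2.33 that was 3.89 among members under 500 CPM of granulosa markers, and no bulk call (0.05, SE 0.11, adjusted p = 0.956). Cbr1, at 81.4 and 81.2 CPM, ratio 0.997 (0.911 to 1.09), and Fermt2, the kindlin of most adherent cells, at 106 and 82.4 CPM, ratio 0.780 (0.715 to 0.851), stayed within 2-fold. Cbr2, Fermt1 and Fermt3 passed the minimum of 100 UMIs only through the wild-type IR library. The study had chosen Cbr2, Dcxr, Fermt1 and Fermt3 as raised on these same bulk libraries. No count over the 8 genes of these 2 families is therefore given.

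Of 19 adhesion and junction genes with 100 UMIs, 6 were at least 2-fold higher and 2 lower, where 6.58% and 6.48% of all genes were. In bulk 5 of 20 rose and 0 fell (7 and 1 at an unadjusted p under 0.05, and 6 and 0 by DESeq2), where 1.53% and 0.885% of all genes did. Pkp3, Tjp3 and Nectin4 had been chosen by the study on these bulk libraries, and Perp, Lama5 and Mcam named by it for oocytes. Nectin4, Pkp3 and Mcam stood under 1 CPM in wild-type non-IR members and reached the minimum with their wild-type IR UMIs. The counts of higher genes are thus a description only. Higher were Nectin4, an adhesion receptor, from 0.135 to 30.4 CPM, Pkp3, a desmosomal plakophilin, from 0.404 to 29.3, Mcam, an immunoglobulin-type adhesion molecule, from 0.852 to 46.1, the laminin chain Lama5, from 1.71 to 58.7, the tight junction protein Tjp3, from 2.24 to 31.6, and Perp. Bulk rises were 3.83 for Nectin4 (SE 0.40, adjusted p = 4.69e-07), 2.60 for Pkp3 (SE 0.26, adjusted p = 3.24e-07) and 2.48 for Tjp3 (SE 0.25, adjusted p = 3.29e-07). The lower genes were Cdh2, which encodes N-cadherin, with 656 and 80 UMIs (log2 ratio -1.58) and named after its values were seen, and Tjp1, the tight junction scaffold ZO-1, at 72.2 and 35.9 CPM, ratio 0.497 (0.438 to 0.563). Both were short of 2-fold with equal weight per cell, Cdh2 at -0.33 and Tjp1 at -0.65 on the log2 scale. Gja4, the connexin that couples oocytes to granulosa cells, was at 173 and 88.7 CPM, ratio 0.514 (0.474 to 0.556), just short of 2-fold, and was not called in bulk (-0.23, SE 0.12, adjusted p = 0.504). Its log2 ratio of -0.96 was -1.11 with equal weight per cell, -1.22 among members under 500 CPM of granulosa markers and -1.44 with cells thinned to 10000 UMIs. Without members over 1000 CPM of other-cell markers it was -0.89.

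Some of the genes with the highest ratios are best known from other lineages. Myod1, the muscle determination factor, had 0 UMIs in all wild-type non-IR members and 289 in 51 of the 67 wild-type IR members, so that its level of 35.3 CPM was at least 262-fold higher than the floor of 3 counts over the group. Bulk Myod1 ranged from 0.0 to 0.285 CPM (median 0.0565) without IR and from 1.35 to 3.08 (median 1.87) with IR, and rose by 4.66 (SE 0.60, adjusted p = 1.33e-05), which was 5.54 without wild-type non-IR replicate 2. Lhx3, a pituitary and motor neuron factor, went from 0.224 to 38.6 CPM, Hmx2, an inner ear factor, from 0.179 to 16.6, and Emx1, a forebrain factor, from 0.0449 to 14.4. Lhx3 and Hmx2 rose in bulk by 8.39 (SE 0.63, adjusted p = 4.37e-08) and 7.14 (SE 0.89, adjusted p = 3.34e-05), and Emx1 did not pass the test (1.82, SE 0.58, adjusted p = 0.126, and 0.037 without Chek2-/- non-IR replicate 6).

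Others of the highest ratios belonged to genes of varied roles. Plch2, a phospholipase C, had 2 UMIs without IR and 365 with IR, a ratio of 497 with a counting interval of 136 to 4116. The G protein subunit gene Gna15 and Rgs14, a regulator of G protein signalling, had 0 UMIs without IR and were at least 159-fold and 199-fold above the floor. Gpr132, a G protein-coupled receptor, was at 0.224 and 51.8 CPM. Plch2 rose in bulk by 5.28 (SE 0.28, adjusted p = 2.16e-12), Gna15 by 3.97 (SE 0.55, adjusted p = 3.28e-05), Rgs14 by 3.16 (SE 0.73, adjusted p = 0.0133) and Gpr132 by 4.45 (SE 0.40, adjusted p = 5.19e-08). Apol8, an apolipoprotein L gene, was at least 121-fold above the floor and rose in bulk by 5.64 (SE 0.66, adjusted p = 3.59e-06). Urah, an enzyme of uric acid breakdown, was at least 160-fold above the floor in oocytes. Slc39a4, a zinc importer, and Fxyd3, a sodium pump regulator, were at least 146-fold and 135-fold above it. Bulk edgeR called none of them in wild-type after IR, with adjusted p = 0.806, 0.0841 and 0.127. In that comparison Slc39a4 had an adjusted p of 0.0108 without Chek2-/- non-IR replicate 6. The edgeR test of the wild-type minus Chek2-/- log2 change did call Slc39a4 (2.26, adjusted p = 0.026) and Fxyd3 (3.76, adjusted p = 0.0214). That call of Slc39a4 was lost without wild-type non-IR replicate 6 or wild-type IR replicate 1. Ifitm10, of the interferon-induced transmembrane family, was at 6.86 CPM already without IR and 153 with IR, and rose in bulk by 4.18 (SE 0.24, adjusted p = 1.35e-11). Hmcn2, which encodes the matrix protein hemicentin, was at 1.71 and 81.4 CPM and rose by 1.82 (SE 0.19, adjusted p = 3.28e-07). Of the 38 Hmcn2 UMIs without IR, 21 and 7 came from 2 of the 122 cells.

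A summed score over genes called radiation-responsive in the series (RRGs) was used to see how uniform the response was from cell to cell. The raised list held 77 genes chosen by the study on the bulk libraries of this same series, so its direction in wild-type ovaries is not independent evidence. Of the 74 in the single-cell gene list 51 had 100 UMIs over the members, many of them only through the wild-type IR library, so no count over those 51 is given. Summed, all 74 took 309.8 CPM in wild-type non-IR, 4027 in wild-type IR, 318 in Chek2-/- non-IR and 339 in Chek2-/- IR members. The wild-type ratio was 13 (12.7 to 13.3) and the Chek2-/- ratio 1.07 (1.01 to 1.12).

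Nearly every irradiated wild-type member had a raised level. The per-cell RRG level had a lowest, median and highest value of 0.0, 279 and 2591 CPM in wild-type non-IR and of 170.5, 3805 and 7855 CPM in wild-type IR. In Chek2-/- members they were 137, 306.5 and 481 CPM without IR and 0.0, 302.7 and 653 CPM with IR. At or above 1000 CPM were 2 of 122, 66 of 67, 0 of 59 and 0 of 88 members, where a count of 0 (at a limit of 3 counts) allows up to 5.08% and 3.41%. With every cell thinned to 10000 UMIs the median RRG count was 2.5, 36, 3 and 3, so the difference was present at equal depth.

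**Figure D2:**
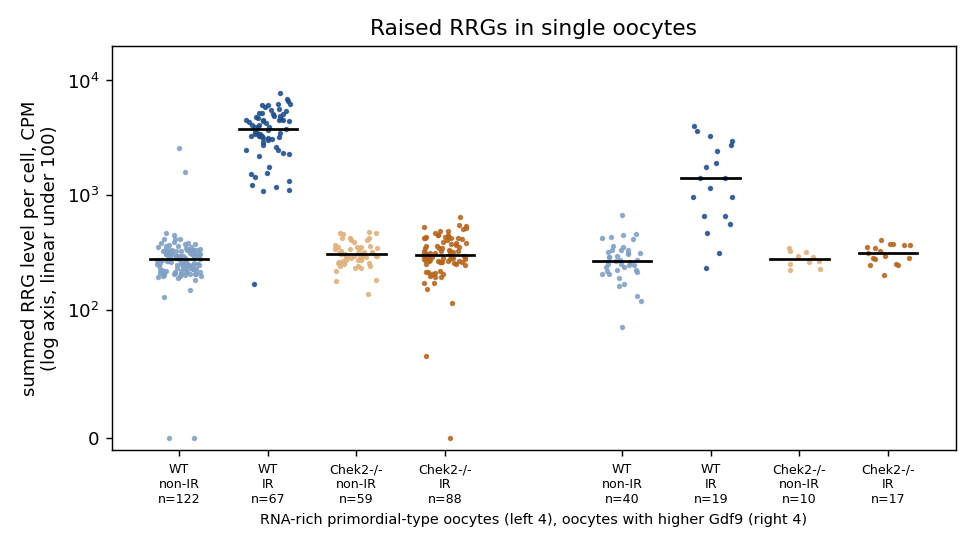
Summed level of the 74 raised RRGs of the single-cell gene list in each cell, in CPM (log axis, linear under 100), by library, for RNA-rich primordial-type oocytes (left) and oocytes with at least 1000 CPM of Gdf9 (right). Bars are medians; the wild-type IR members have a median of 3805 CPM, and 2 wild-type non-IR members stand above 1000 CPM.

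A pair of wild-type members had raised levels without IR. They had 2591 and 1605 CPM of raised RRGs, while the next wild-type non-IR member had 470.5. The first held 163281 UMIs with 129 of Mdm2, 55 of Cdkn1a, 33 of Bbc3, 15 of Fermt1 and 0 of Cbr2. The second held 180101 UMIs with 60 of Mdm2, 22 of Cdkn1a, 8 of Bbc3, 15 of Fermt1 and 10 of Cbr2. These cells supplied 30 of the 31 Fermt1 UMIs and 10 of the 13 Cbr2 UMIs of the library, and their barcodes did not occur in another library. Their granulosa marker levels were 1617 and 1566 CPM and their Gdf9 levels 110 and 183 CPM, within the range of the other members.

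The responding genes were lower in oocytes with more Gdf9 and in other cells. In oocytes with at least 1000 CPM of Gdf9 the summed RRG level was 274, 1770, 282 and 308 CPM in the 4 libraries, and in all other cells 144, 455, 139 and 167. At or above 1000 CPM were 0 of 40, 11 of 19, 0 of 10 and 0 of 17 of the Gdf9-rich oocytes, where a count of 0 allows up to 7.5%, 30% and 17.6%. The 820 genes higher in wild-type IR members were chosen for their ratio there, so lower ratios elsewhere follow in part from that choice. Of these genes, 728 had 20 UMIs in the wild-type Gdf9-rich oocytes, and 272 of the 728 (37.4%) were at least 2-fold higher there, against 3.02% of all 11769 such genes. In the other cells 62 of 794 (7.81%) were, against 0.726% of 12260. Among barcodes with the oocyte genes but under 10000 UMIs, 63 of 74 in wild-type IR were at or above 1000 CPM, against 0 of 30 in wild-type non-IR, where a count of 0 allows up to 10.0%, 1 of 6 in Chek2-/- non-IR and 2 of 36 in Chek2-/- IR.

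Single genes differed in how much of the response lay in the oocytes. Cdkn1a was at 6.82 and 84.2 CPM in other wild-type cells without and with IR, and 32.5% of other irradiated wild-type cells thinned to 10000 UMIs had a UMI, against 3.55% without IR and 82.1% of wild-type IR members. Mdm2 was at 35.9 and 55.2 CPM in other wild-type cells, and Bbc3 at 6.36 and 20.7. Fermt1 was at 0.0706 and 0.510 CPM in those cells, Cbr2 at 0.182 and 1.15, and Cst6, a cysteine protease inhibitor at 1.08 and 188 CPM in the wild-type members, at 0.965 and 1.49. Thinned to the same depth, 67.2% of wild-type IR members had a Fermt1 UMI and 67.2% a Cbr2 UMI, against 0.272% and 1.06% of other wild-type IR cells. The median depth before thinning was 77693 UMIs in those members and 14751 in those other cells.

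Within the wild-type IR library the RRG level varied between cells and moved with other properties. Across the 67 members, which share 1 library and its preparation, its Spearman correlation was -0.61 with granulosa marker CPM, -0.54 with the mitochondrial share, 0.64 with the summed level of 20 meiotic axis genes, 0.28 with UMIs and 0.11 with Gdf9. The 40 members under 500 CPM of granulosa markers had a median RRG level of 4525 CPM (170.5 to 7855), and the 27 at or above it 2763 CPM (1100 to 6104). In Chek2-/- IR the corresponding medians were 328.9 and 284.9 CPM. The part that granulosa RNA in the barcode plays in this spread was not tested.

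**Figure D3:**
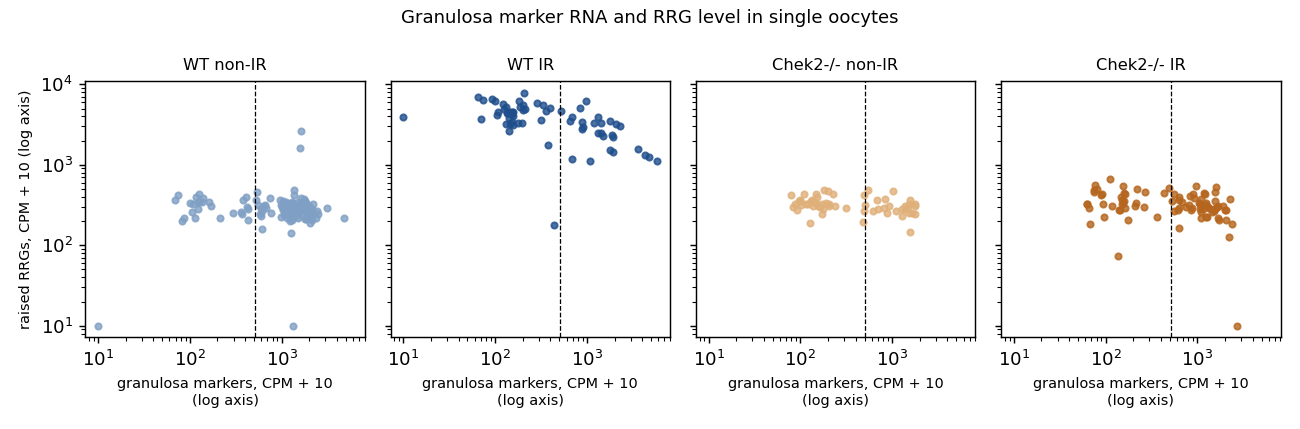
RRG level against granulosa marker level in single members, both in CPM plus 10 on log axes, with 1 panel per library. All but 1 of the wild-type IR members, at 170.5 CPM, lie above 1000 CPM, as do 2 wild-type non-IR members, and the 40 wild-type IR members with under 500 CPM of granulosa markers have the higher median, 4525 against 2763 CPM.

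The second comparison set irradiated against non-irradiated Chek2-/- members. Of the 12455 genes, 178 (1.43%) were at least 2-fold higher and 57 (0.458%) at least 2-fold lower. With every cell given the same weight, 428 were higher and 84 lower. Of the 820 genes higher in wild-type IR members, 35 (4.27%) were at least 2-fold higher and 26 (3.17%) lower in Chek2-/- oocytes, with a median log2 ratio of 0.01. Of the 95 that were 16-fold higher in wild-type, most with a handful of UMIs in these libraries, 14 were higher and 15 lower, with a median of -0.17. Of the 38 p53 targets, 3 were higher and 1 lower, and their summed level was 1.03 times (1.00 to 1.05) that without IR.

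In bulk Chek2-/- ovaries 3 of 26790 genes rose (0.0112%) and 0 fell. All 3 were among the 77 raised RRGs. At an unadjusted p under 0.05, 1179 genes differed, and DESeq2 called 14. Of the 77 raised RRGs, 12 were higher and 5 lower at an unadjusted p under 0.05, and DESeq2 called 5 higher and 0 lower. Of the p53 targets, 2 of 40 rose and 0 fell (10 and 0 at an unadjusted p under 0.05, and 3 and 0 by DESeq2). At that unadjusted p, 199 of the 12281 oocyte genes tested were higher and 106 lower. One of them was Ccng1, from 39.1 to 45.3 CPM (median 41.0) without IR to 56.2 to 65.6 (median 60.8) with IR, a rise of 0.56 (SE 0.048, adjusted p = 6.82e-07). In the Chek2-/- members Ccng1 was at 25.5 and 30.7 CPM. The test of the difference between the genotypes' responses (genotype by IR interaction) called 277 of 26790 genes (1.03%). It called Mdm2 at 1.31 (SE 0.074, adjusted p = 4.10e-11), Ccng1 at 1.47 (SE 0.068, adjusted p = 8.12e-13), Cdkn1a at 1.36 (SE 0.18, adjusted p = 5.36e-05), Pmaip1 at 2.50 (SE 0.26, adjusted p = 2.01e-06), Cbr2 at 7.66 (SE 1.03, adjusted p = 7.49e-05) and Fermt1 at 5.65 (SE 0.81, adjusted p = 0.000194), each as the wild-type minus the Chek2-/- log2 change. Without Chek2-/- non-IR replicate 6, a leave-out chosen after seeing the data, Cbr2 was at 6.21 (adjusted p = 3.99e-05, edgeR) and Fermt1 at 4.90 (adjusted p = 0.00024). It did not call Gna15 (2.53, SE 0.82, adjusted p = 0.200), of which 1 Chek2-/- IR library held 2.01 CPM and which was called without Chek2-/- IR replicate 2 (3.87, adjusted p = 7.18e-05, edgeR), nor Ankrd65 (5.30, SE 1.62, adjusted p = 0.154) or Cst6 (2.81, SE 0.75, adjusted p = 0.0791, and 0.0384 without Chek2-/- IR replicate 2). Ankrd65 ranged from 3.63 to 7.06 CPM in bulk wild-type IR, and no Chek2-/- library was above 0.106 CPM. Cst6 ranged from 0.739 to 2.3 CPM in bulk wild-type IR, and no Chek2-/- library was above 0.18 CPM. The interaction of both genes thus rested on Chek2-/- counts near 0. Rgs14 was not called either (1.43, adjusted p = 0.798, edgeR), and was called at 3.2 (adjusted p = 0.0415) without Chek2-/- IR replicate 2.

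**Figure D4:**
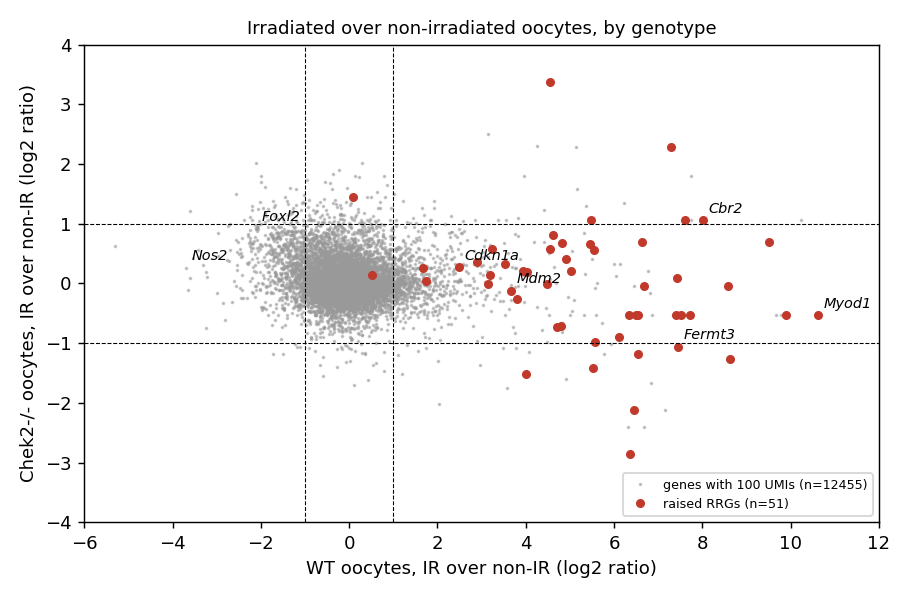
Log2 ratio of IR over non-IR in wild-type members (horizontal) and in Chek2-/- members (vertical) for the 12455 genes with 100 UMIs, with the 51 raised RRGs in red and 2-fold limits dashed. The red points spread to 10.6 on the wild-type axis and lie on both sides of 0 on the Chek2-/- axis. Many of them passed the minimum only through the wild-type IR library, so no count of them is given.

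The 235 genes past 2-fold in the Chek2-/- oocytes had a median of 59 UMIs over both Chek2-/- libraries, against 508 for all 12455 genes, and 64 of them had at least 300 UMIs over all members. The largest ratios were those of Fam228a, with 0 and 7 UMIs, Flnc, a filamin, with 3 and 28, and Gm12840, with 7 and 53. The smallest were those of Hmx2, with 7 and 1, and of H2-Aa, an MHC class II chain, with 29 and 10. None of the 173 higher genes tested rose or fell in bulk Chek2-/- ovaries by edgeR, where only 2 of all 12281 oocyte genes tested rose (0.0163%) and 0 fell. With so few calls in all, that count cannot tell the 173 from other genes. At an unadjusted p under 0.05, 2 of the 173 were higher and 3 lower, against 199 and 106 of the 12281, and DESeq2 called 1 of the 173. Granulosa marker RNA was 1.58 times higher (1.53 to 1.64) in Chek2-/- IR than in Chek2-/- non-IR members.

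**Figure D5:**
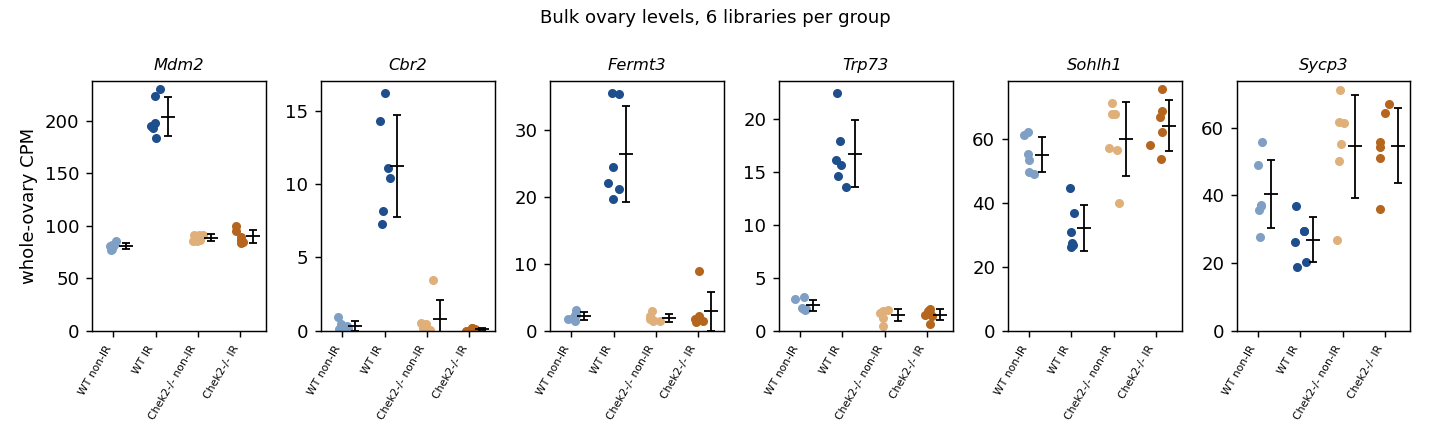
Whole-ovary CPM of 6 genes in the 24 bulk libraries, 6 per group, with bars for the mean and SD. Mdm2, Cbr2, Fermt3 and Trp73 are higher in every wild-type IR library than in every library of the other 3 groups, and Sohlh1 is lower in the wild-type IR group, at 26.1 to 44.6 CPM, than in wild-type non-IR.

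The genes lower in wild-type IR members were largely those more abundant in other cells. Of the 807, 504 (62.5%) had at least 2 times their member level in the other wild-type cells, against 19.2% of all genes. Of 12 granulosa markers 11 were at least 2-fold lower and 1, Krt18, higher, against 6.48% and 6.58% of all genes. Without members over 1000 CPM of other-cell markers Krt18 had a log2 ratio of -0.24 in place of 1.66. Foxl2, the granulosa transcription factor, was at 113, 26.2, 39.0 and 74.2 CPM, a wild-type ratio of 0.233 (0.201 to 0.267), and Fst, the activin inhibitor follistatin, at 80.7, 26.2, 23.2 and 48.6. With cells thinned to 10000 UMIs the log2 ratio of Fst was -0.84 in place of -1.62. Among members under 500 CPM of granulosa markers that of Foxl2 was -0.8 in place of -2.1. In the other cells Foxl2 was at 258 to 308 CPM and Fst at 273 to 282. The summed granulosa level was 0.416 times (0.402 to 0.429) that of wild-type non-IR members. Bulk edgeR called 0 of the 12 granulosa markers in wild-type, with 0 at an unadjusted p under 0.05 and 0 by DESeq2. Among members under 500 CPM of granulosa markers (27, 40, 36 and 35 cells), a restriction chosen after seeing the data that acts on granulosa RNA itself, 322 genes were at least 2-fold lower in wild-type IR in place of 807, and 697 higher in place of 820.

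Immediate-early genes are switched on soon after many stimuli. Of 18, 6 were at least 2-fold lower and 2 higher in wild-type IR members, where 6.48% and 6.58% of all genes were. Fos was at 283, 111, 140 and 192 CPM, and Jun at 294, 102, 160 and 192. The summed level was 0.539 times (0.526 to 0.551) that without IR in wild-type. Among members under 500 CPM of granulosa markers the wild-type log2 ratio was -0.15 for Fos in place of -1.35, and -0.94 for Jun in place of -1.53, and with equal weight per cell -0.84 and -0.63. The 2 higher were Atf3, a stress-induced factor, at 2.78 and 13.7 CPM, and Ier3, an early response gene linked to survival, at 9.42 and 26.1. Atf3 had a log2 ratio of 0.70 in place of 2.29 among members under 500 CPM of granulosa markers, and Ier3 of 0.87 in place of 1.47 without members over 1000 CPM of other-cell markers. In other cells Fos was at 1470 and 1178 CPM in the wild-type libraries. Bulk edgeR called none of the 19 genes of the list, with 2 higher at an unadjusted p under 0.05 and 0 by DESeq2.

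The lowest ratios of all belonged to genes at low levels. 4930505K13Rik had 53 UMIs in wild-type non-IR and 0 in wild-type IR members. Nos2, the inducible nitric oxide synthase, had 228 and 6 UMIs in the wild-type members, 10.2 and 0.732 CPM, ratio 0.0716 (0.0260 to 0.158). Prdm1, a germ cell repressor, had 148 and 4 UMIs, Frmpd3 220 and 6, and Slitrk1, a neuronal membrane protein, 214 and 6. In the other wild-type cells Nos2 was higher than in the members, at 27.9 and 26.0 CPM, while Prdm1 was at 1.45 and 1.47 and Frmpd3 at 0.424 and 0.488. In the Chek2-/- members Nos2 stood at 7.55 and 9.10 CPM, Prdm1 at 9.29 and 9.90 and Frmpd3 at 17.4 and 16.2. In bulk wild-type ovaries Frmpd3 fell by 2.20 on the log2 scale (SE 0.50, adjusted p = 0.0122), while Nos2 (-0.04, SE 0.17, adjusted p = 0.982) and Prdm1 (-0.12, SE 0.15, adjusted p = 0.882) were not called. Gm17767, the 1 lowered RRG with 100 UMIs, was at 11.3, 2.81, 12.9 and 13.04 CPM and fell in bulk by 2.20 (SE 0.26, adjusted p = 4.84e-06). Of all 782 lower oocyte genes tested, 26 fell in bulk (3.32%) and 1 rose, against 1.4% that fell among all 12281.

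DNA repair genes were present in the members. Of 21 checkpoint genes 1 was at least 2-fold higher, Rad9a, a clamp subunit, at 6.95 and 14.8 CPM, and 0 lower, about the 6.58% of all genes that were higher. The log2 ratio of Rad9a was 0.52 with cells thinned to 10000 UMIs, in place of 1.09. The summed level of the checkpoint list had a wild-type ratio of 1.05 (1.03 to 1.07). Of 16 end-joining genes 1 was higher, again near that share, Nhej1, which encodes XLF, at 28.6, 72.6, 27.9 and 28.3 CPM, ratio 2.54 (2.27 to 2.85). Nhej1 was not called in bulk (0.21, SE 0.11, adjusted p = 0.500). Of 31 homologous recombination and Fanconi genes 0 passed 2-fold either way, with Brca2 at 115 and 85.7 CPM. Rif1, which protects break ends, was at 210 and 127 CPM, ratio 0.606 (0.566 to 0.648). In bulk, edgeR called 0 of these 31 genes in wild-type, with 4 lower at an unadjusted p under 0.05 and 0 by DESeq2. Of the 21 checkpoint and 16 end-joining genes, 1 of each list fell in bulk, where 0.885% of all genes tested fell. They were Rad1, another clamp subunit, and Xrcc6, the KU70 subunit, both named after their values were seen. The call of Xrcc6 was lost in 5 of the 24 fits that left out 1 library.

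Genes of oocyte identity differed little between the wild-type members. Of 11 regulators of the primordial stage 0 passed 2-fold, where 6.58% of all genes were higher and 6.48% lower. The summed ratio of the 11 was 0.980 (0.964 to 0.997). Figla was at 553 and 558 CPM and Nobox at 364 and 320. Of 18 meiotic axis genes 1 was higher, about the 6.58% of all genes that were. It was Msh5, a crossover protein, at 7.27 and 15.3 CPM. The log2 ratio of Msh5 of 1.07 was 0.71 with equal weight per cell and 0.13 with cells thinned to 10000 UMIs. The 13 growth-stage genes that the rule did not use were 1.47 times higher (1.45 to 1.48) summed in wild-type IR members, at 3878 and 5680 CPM, with Zp2, a zona pellucida gene, at 1214 and 1762, and Padi6, a cortical lattice protein, at 1440 and 2125. Of the 12 growth-stage genes with 100 UMIs 2 were at least 2-fold higher, where 6.58% of all genes were. They were Oosp1, an oocyte-secreted protein, at 10.8 and 29.3 CPM, and Bcl2l10. Oosp1 had a log2 ratio of 1.44, which was 0.23 with equal weight per cell and 0.42 with Gdf9 under 500 CPM. Nuclear genes of oxidative phosphorylation had a summed ratio of 0.983 (0.977 to 0.990), and KIT and PI3K pathway genes, which govern follicle activation, 0.964 (0.943 to 0.985). Of these 17 pathway genes 1 was lower, about the 6.48% of all genes that were. It was Cdkn1b, at 110 and 37.1 CPM, which among members under 500 CPM of granulosa markers had a log2 ratio of -0.84 in place of -1.57.

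In bulk ovaries 3 of the 11 primordial regulators fell after IR in wild-type and 0 rose, where 0.885% of all genes tested fell. Sohlh1 ranged from 49.1 to 62.2 CPM (median 54.4) in wild-type non-IR, from 26.1 to 44.6 (median 29.2) in wild-type IR, from 40.0 to 71.5 (median 62.5) in Chek2-/- non-IR and from 53.7 to 75.7 (median 64.7) in Chek2-/- IR. The wild-type groups did not overlap, and Sohlh1 fell by 0.78 (SE 0.13, adjusted p = 0.000529), with an interaction of -0.88 (SE 0.19, adjusted p = 0.0131). Lhx8 fell by 0.46 (SE 0.12, adjusted p = 0.0270), a call lost in 9 of the 24 fits that left out 1 library, and Nobox by 0.50 (SE 0.11, adjusted p = 0.00699), with interactions that did not pass (adjusted p = 0.197 and 0.0969), though that of Nobox passed in 2 of those fits. Sycp3 differed by -0.59 (SE 0.20, adjusted p = 0.170). In the members the ratios of Sohlh1, Lhx8, Nobox and Sycp3 were 0.917 (0.879 to 0.957), 0.995 (0.945 to 1.05), 0.880 (0.842 to 0.919) and 1.00 (0.974 to 1.03).

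Some interferon and stress genes had much of their level in single barcodes, and others were detected in more of the members. Of 11 interferon genes with 100 UMIs 6 were at least 2-fold higher in wild-type IR members, where 6.58% of all genes were, with a summed ratio of 1.54 (1.48 to 1.61). For Isg15, an interferon-induced ubiquitin-like protein at 2.96 and 30.8 CPM, 43.3% of the wild-type IR UMIs came from 1 barcode, and 14 of 67 members had any. For Gbp2, a guanylate-binding protein, 51.5% came from 1 barcode. Ifitm3, an antiviral membrane protein at 11.2 and 65.1 CPM, was found in 61 of 67 members, with 16.9% of its UMIs from 1. A gene counts as found with 1 UMI, and the median wild-type IR member held 77693 UMIs. Cxcl10, a chemokine, was at 6.10 and 38.8 CPM, and was found in 29 of 67 members. Its log2 ratio of 2.67 was 1.63 among members with 50000 UMIs, 1.87 among those under 500 CPM of granulosa markers and 3.95 with equal weight per cell. In the other wild-type cells Isg15 was at 5.54 and 53.4 CPM and Ifitm3 at 128 and 202. Bulk edgeR called 0 of the 19 genes, with 3 higher at an unadjusted p under 0.05 and 1 by DESeq2. Of 23 heat shock and redox genes 4 were at least 2-fold higher and 0 lower, with a summed ratio of 1.18 (1.17 to 1.19), and bulk edgeR called 0 of them in wild-type, with 0 at an unadjusted p under 0.05 and 0 by DESeq2. Mt1, a metallothionein at 12.3 and 120 CPM, had 50.1% of its UMIs in 1 barcode. Hmox1, heme oxygenase 1 at 18.7 and 67.3 CPM, was found in 61 of 67 members with 5.44% of its UMIs in 1. Markers of some other cell types were higher in summed wild-type IR members too: epithelium at 21.9 and 120 CPM with per-cell medians of 17.0 and 14.0, macrophage at 6.91 and 55.0 with per-cell medians of 4.80 and 25.7 and 1 cell at 5701, and stroma at 240 and 356. Erythroid markers went the other way, at 185.7 and 40.8 CPM with per-cell medians of 77.9 and 40.6. Their part in these results was not tested, and without the members over 1000 CPM of such lists, a restriction chosen after seeing the data, Mt1 had a log2 ratio of -0.22 in place of 3.28 and Gbp2 of -1.34 in place of 3.77, and Isg15 was at 1.13 in place of 3.37, while Hmox1 was at 1.84 in place of 1.85, Cxcl10 at 2.46 in place of 2.67 and Ifitm3 at 2.12 in place of 2.54. The raised RRGs then had a ratio of 13.8 in place of 13, and 774 genes were at least 2-fold higher and 1271 lower.

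The last comparison set Chek2-/- against wild-type members without IR, and shares the wild-type non-IR library with the first. Here 68 of 12455 genes (0.546%) were at least 2-fold higher in Chek2-/- and 638 (5.12%) lower. The lower genes included 8 of 12 granulosa markers, with a summed ratio of 0.436 (0.423 to 0.450), and all 4 erythroid genes with 100 UMIs. The summed erythroid ratio was 0.400 (0.367 to 0.434), but 1 wild-type non-IR barcode held 19898 CPM of erythroid RNA and the per-cell medians were 77.9 and 75.2 CPM. Among members under 500 CPM of granulosa markers 142 genes in place of 706 passed 2-fold, 49.3% of them higher in place of 9.63%. Past 2-fold by far were 1010001B22Rik, with 594 and 0 UMIs, and Gm15446, with 904 and 9 UMIs. In bulk, where 1430 of 26790 genes (5.34%) differed between non-IR genotypes, these were lower in Chek2-/- by -3.19 (SE 0.43, adjusted p = 0.000134) and -3.17 (SE 0.10, adjusted p = 1.90e-16) on the log2 scale. Wdfy1, an endosomal FYVE protein, was higher, at 8.21 and 32.9 CPM in the members and by 1.51 in bulk (SE 0.070, adjusted p = 2.52e-13). Wdfy1 stood on a list of 5 markers of mouse strain background, of which bulk edgeR called 2 higher and 2 lower in Chek2-/-. The part of strain background in these differences between genotypes was not tested. The raised RRGs had a summed Chek2-/- to wild-type ratio of 1.03 (0.982 to 1.07), and the primordial regulators 1.18 (1.16 to 1.20).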

How the data were processed

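Single-cell 3' libraries were deposited by the authors as Cell Ranger matrices of UMI counts per gene and barcode (GRCm38/mm10 reference), which are whole, unnormalized counts. For the 24 bulk libraries the authors deposited expected counts per gene made with Salmon 1.3.0 after Trim Galore 0.6.5, per the labels, and these were rounded to whole numbers here. Bulk totals ran from 17824920 to 32605519 counts.

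Oocytes were selected with the limits stated in the report. The members and all gene lists were chosen with earlier results of these data known, and the rule used measured values. UMIs were summed over the members of a library and compared as CPM for genes with at least 100 UMIs over all members, with 0.5 added to each sum for log2 ratios and 2-fold limits but not for printed ratios. Ratios carry exact conditional Poisson 95% limits, shares exact binomial limits, and both cover counting error only. For genes with 0 UMIs in a group the floor was 3 counts over the group. For a count of 0 cells the limit printed is 3 of the cells. No doublets were removed from the members in the values reported, and leaving out the 4 called by Scrublet (scanpy 1.11.5) was an alternative.

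Bulk genes with at least 10 counts over the 24 libraries were tested with edgeR 4.0.16 (quasi-likelihood, TMM, 1 fit over the 4 groups, R 4.3.3) at a Benjamini-Hochberg adjusted p of at most 0.05. Of 44674 bulk gene identifiers, 27408 were named from the single-cell gene list. DESeq2 1.42.0 and other filters, scalings and member limits were alternatives, and leaving out each bulk library in turn was added after seeing the data. Genes were named by rule: the markers, Chek2, the highest and lowest ratios (12 each in wild-type, 6 each in the other comparisons), the genes with the most UMIs or past 2-fold in each list, genes the study named for oocytes, and the 8 with the highest ratio over other cells. Tmem140, Igfals, Cop1, Cdh2, Rad1 and Xrcc6 were named after their values were seen. The ratio step was tested on simulated data.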

Additional observations from a re-analysis of the deposited data

Results flagged for a closer look

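For 14 of 23 bulk genes examined, the change on IR differed between the genotypes by the test of the interaction (edgeR, adjusted p at most 0.05), against 1.03% of all 26790 genes, and most of the 23 had been chosen for their response. The wild-type minus Chek2-/- difference was -0.88 on the log2 scale for Sohlh1, the primordial follicle factor. Among p53 regulators and targets it was 1.31 for Mdm2, 1.47 for Ccng1, 2.77 for Trp73, 1.36 for Cdkn1a, 1.44 for Bbc3 and 2.50 for Pmaip1. Among the genes nearly silent in non-irradiated oocytes it was 7.66 for Cbr2, 5.65 for Fermt1, 3.01 for Fermt3, 5.33 for Plch2, 5.23 for Myod1 and 6.35 for Apol8. For Ifitm10, detected without IR, it was 4.29. Leaving out 1 library moved it by over 1.5 times for Cbr2 (6.21), Fermt1 (4.90), Fermt3 (3.81), Apol8 (5.26) and Myod1 (6.11), which all kept the call.

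In 10 of 92 groups of 6 bulk libraries (10.9%), 1 library stood apart from the other 5 by Dixon's test, where chance gives about 1 in 20. Lhx8 had a lowest library of 33 CPM and Nobox of 108 CPM in Chek2-/- non-IR, both in replicate 6. In the same group the highest values were 3.46 CPM of Cbr2 and 3.88 of Fermt1, also in replicate 6. Those of Myod1 and Apol8 were 0.628 CPM in replicate 4 and 1.37 CPM in replicate 5. In Chek2-/- IR the highest library held 8.91 CPM of Fermt3 and 2.01 of Gna15, both in replicate 2. The highest wild-type IR library held 31.1 CPM of Plch2, and the highest wild-type non-IR library 0.285 CPM of Myod1.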

How the results depend on the processing

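The single-cell counts of genes past 2-fold depended on the minimum and on the weighting. In the order wild-type IR, Chek2-/- IR and Chek2-/- against wild-type non-IR, they were 2503, 708 and 1242 with a minimum of 30 UMIs, 997, 64 and 385 with 300 UMIs, and 300, 109 and 168 with cells thinned to 10000 UMIs, which left 5605 genes. Without the members called doublets by Scrublet (332 left) they were 1642, 230 and 706. With equal weight per cell the Chek2-/- IR count was 512. The raised RRG ratio in wild-type was 12.4 with equal weight, 13.4 with Gdf9 under 500 CPM and 13.4 with at most 10% mitochondrial UMIs. Alternatives chosen after seeing the data were members under 500 CPM of granulosa markers (138 members, 27, 40, 36 and 35 by library), which gave 1019, 100 and 142 genes and RRG ratios of 14.4 and 1.16, members without other-cell RNA (RRG ratio 13.8), and members with 50000 UMIs, which left 39 in wild-type IR. Gatm turned to a log2 ratio of 0.01 when thinned, Isg15 to -0.02 under 500 CPM of granulosa markers and Mt1 to -0.22, Gbp2 to -1.34 and Krt18 to -0.24 without other-cell RNA, and the cause was not tested. Of 79 named oocyte genes past 2-fold in wild-type, 11 were under 2-fold in at least 1 other setting and 19 when the restrictions chosen after seeing the data are included. Without those restrictions, 1236 of the named oocyte values in other settings stayed within counting error and 155 moved beyond it. The ratio of 61 of the 79 genes moved by over 1.5 times in at least 1 setting, of 44 when thinned and of 42 under 500 CPM of granulosa markers. In bulk, requiring 2-fold left 288, 1, 167 and 211 genes for wild-type IR, Chek2-/- IR, the interaction and genotype, and DESeq2 called 14, 458 and 2507 for the last 3. Of the named bulk values 565 kept their direction and side of the threshold, 4 became called and 5, of Cop1 and Tmem140, lost the call. Leaving out 1 bulk library, added after seeing the data, kept the total counts for wild-type IR and the interaction within 1.5 times. The genes called lower moved further, to between 142 and 340 in place of 237 for wild-type IR and between 55 and 133 in place of 91 for the interaction. These fits gave 2 to 5 genes for Chek2-/- IR (5 without wild-type IR replicate 6) and 573 to 1800 for genotype, the last with 675, 716 and 573 without wild-type non-IR replicates 2, 3 and 4 and 807 without Chek2-/- non-IR replicate 1. Among named genes that had passed in wild-type, the call was lost in 22 of these 24 fits for Cop1, 15 for Tmem140, 9 for Lhx8, 5 for Xrcc6 and 2 for Mcam. With 1 single-cell library per group and few UMIs for low genes, no difference between those libraries has a replicate check.

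Nothing in the labels says what the bulk replicate numbers share, and not every same-numbered pair had a correlation over 0.1, so they were not used as pairs. Correlations of same-numbered libraries ran from -0.194 to 0.657, 12 of 24 libraries correlated best with their own number, a hint from the data that some may be paired, and a replicate block gave 661, 4, 281 and 2025 calls.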
